A study of Mus musculus with 12 samples.

Results

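The heat-inducible Hsp70 genes Hspa1a and Hspa1b were followed together with 8 further chaperone genes in tumour-associated macrophages (TAMs). The others were Hspa8, Hsph1, Dnajb1, Bag3, Hsp90aa1, Hsp90ab1, Hspd1 and Hspe1. These 10 genes, of 24781 listed in the deposited table, were chosen by name with the difference between picrotoxin and DMSO in these libraries already known. Their differences between the groups are therefore given as a description, with no test. TAMs came from MC38 tumours, a mouse colon adenocarcinoma line inoculated intradermally into wild-type mice. For the study as a whole, wild-type mice are given as C57BL/6J or C57BL/6N, and mice as of both sexes and aged 2 to 5 months. Sex, substrain and age are not given for each library. Mice of one group were injected with picrotoxin, an antagonist of the ionotropic GABA type A receptor, and those of the other with its solvent DMSO, from the day before inoculation and then every other day. On day 7, tumours were digested with collagenase, and 100 CD45+CD11b+F4/80high cells were sorted for each of 6 DMSO and 6 picrotoxin libraries. All libraries thus share the wild-type genotype, tumour line, time, digestion and sorting gate. The part of the digestion in the values below was not tested. The labels call the libraries independent preparations, and the methods of the study give each a mouse of its own while its figure text gives fewer mice. All p-values below thus measure the spread between libraries and would be too small if some shared a mouse. In pools of 100 cells, fewer cells of a type and less RNA per cell cannot be told apart.

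Hsp70 proteins bind exposed hydrophobic stretches of unfolded proteins and release them in cycles of ATP hydrolysis. J-domain proteins such as Dnajb1 start the cycle, nucleotide exchange factors such as Hsph1 and Bag3 end it, and Hsp90 takes over many partly folded clients. Heat shock factor 1 drives the inducible members through heat shock elements, inverted repeats of the unit GAA, and macrophages use the same chaperones under fever and oxidant load.

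Because the pair is hard to separate by sequence, its gene structure and promoters are shown first. On GRCm38, Hspa1a lies at chromosome 17, 34969190 to 34972156, and Hspa1b at chromosome 17, 34956436 to 34959238, both on the minus strand and each in 1 exon. Their coding sequences were identical at 1915 of 1923 aligned bases (99.6%). Downstream of the stop codon, identity fell to 71.6%, and none of the 351 windows of 50 bases in the last 400 bases of either transcript occurred in the other. Library priming from the poly(A) tail favours that divergent end, but how the authors treated reads that map to several places is not given in the sources used here. Hspa1a also overlaps the gene model Gm20481 on the other strand. Gm20481 shares stretches with both genes and is not a row of the table. The individual values of Hspa1a and Hspa1b are uncertain for these reasons, and their sum is given beside them.

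The upstream 250 bases of the pair, from RefSeq promoter windows on GRCm38.p6, were identical at 247 of 250 positions. Capitals mark a match to the 8-base heat shock element GAANNTTC, searched together with TTCNNGAA, which covers both strands because each motif is its own reverse complement. The match started 104 bases before the transcription start of both genes (position -104). Only exact units were searched, here and in the windows below, so elements with a mismatched unit were not counted. Both runs are shown because they carry this shared promoter, at chr17:34972157-34972406 for Hspa1a and chr17:34959239-34959488 for Hspa1b, minus strand.
Hspa1a: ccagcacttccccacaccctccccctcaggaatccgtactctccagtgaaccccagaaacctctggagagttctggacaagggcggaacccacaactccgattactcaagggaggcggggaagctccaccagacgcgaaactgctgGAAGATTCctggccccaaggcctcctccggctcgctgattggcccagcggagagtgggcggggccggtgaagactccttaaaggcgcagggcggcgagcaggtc
Hspa1b: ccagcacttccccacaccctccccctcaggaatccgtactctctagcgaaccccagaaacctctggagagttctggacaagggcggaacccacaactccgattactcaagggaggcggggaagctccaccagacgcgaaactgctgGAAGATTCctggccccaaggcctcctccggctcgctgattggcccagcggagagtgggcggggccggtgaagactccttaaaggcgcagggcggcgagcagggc

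Windows of 300 bases, 250 before and 50 after the start, were found for 7 of the 10 genes. At least 1 of the motifs was present in 15.1% of all 32851 such windows, and a run of 3 alternating units in 0.603%. Hspd1 and Hspe1 are neighbours on chromosome 1 that are transcribed in opposite directions, and the same site at chr1:55088053-55088082, with 2 overlapping runs of 3 units, lies in the window of Hspe1 and in 1 of the 2 windows of Hspd1, that of the start at 55087932. The other Hspd1 window, of the start at 55088243, held 0 matches. Hsph1 held a run of 3 units within chr5:149636287-149636316 on the minus strand. This run lay after the transcription start, from position 37 for the start at 149636336, and a separate match lay before it, at -33. Bag3 had 1 match, within chr7:128523603-128523632 on the plus strand, at position 43 after the start. The windows of Dnajb1 had 0. These stretches are shown to compare the element between the members, with capitals for the matched units.
Hspe1: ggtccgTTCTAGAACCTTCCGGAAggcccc
Hspd1: ggggccTTCCGGAAGGTTCTAGAAcggacc
Hsph1: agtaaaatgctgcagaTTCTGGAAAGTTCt
Bag3: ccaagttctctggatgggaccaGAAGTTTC
A match describes letters in these windows, and binding was not measured. Because inexact units were not searched, these counts do not rank the promoters by their heat shock elements.

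Libraries held between 201697 and 309617 molecules, and 12 of 12 macrophage markers were detected. Macrophage markers made up 1.12% ± 0.137 of the DMSO libraries and 1.17% ± 0.0544 of the picrotoxin libraries (SD, n = 6 each, exact permutation test, two-sided, p = 0.457). Fibroblast and matrix markers took 0.00728% to 0.304% of molecules in DMSO libraries, highest in DMSO 5 and next in DMSO 3 (0.0874%), against 0.0044% to 0.0238% in picrotoxin libraries (exact permutation p = 0.152). T and NK cell markers reached at most 23 molecules, in picrotoxin 6, of which 20 were Gzmb, while Cd3e, Cd3g and Cd8a were at 0 in every library. Of 6 epithelial markers of MC38 cells, Epcam, Krt18, Krt19 and Krt20 were at 0 and the other 2, Krt8 and Cdh1, summed to 8 to 21 molecules per library. Their share was 0.00325% to 0.00637% of molecules with DMSO and 0.00357% to 0.0104% with picrotoxin, with picrotoxin 3, 4, 5 and 6 above every DMSO library (exact permutation p = 0.0649), and their part in the values below was not tested. The ribosomal RNA precursor Rn45s had a share of 10.1% ± 2.42 with DMSO and 12.95% ± 1.32 with picrotoxin (SD, n = 6 each, exact permutation p = 0.0368). Genes with at least 1 molecule numbered 10400 ± 409 with DMSO and 9999 ± 139 with picrotoxin (SD, n = 6 each, exact permutation p = 0.0455), and the part of this difference in the values below was not tested. Without the row Rn45s, the log2 fold change of the pair described below was 1.48.

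In DMSO libraries the 10 genes fell into 5 of higher and 5 of lower level, with Hspa1a and Hspa1b among the lower. On a scale of counts scaled to equal library size (CPM) per kilobase of transcript, the level of Hspa8, the constitutive cytosolic Hsp70, was 899 ± 81.7 (SD, n = 6). Hsp90ab1, the constitutive cytosolic Hsp90, followed at 579 ± 62.8 and the mitochondrial co-chaperonin Hspe1 at 342 ± 47.0. The stress-responsive cytosolic Hsp90 gene Hsp90aa1 came next at 183 ± 25.5, before the mitochondrial chaperonin Hspd1 at 104 ± 21.2. The ranges of these 5 genes over the 6 libraries did not overlap between neighbours in that order, nor did that of Hspd1 with the next gene. The remaining 5, Hsph1 (20.5 ± 10.95), Dnajb1 (19.7 ± 6.58), Hspa1a (19.1 ± 11.1), Hspa1b (16.7 ± 6.69) and Bag3 (12.1 ± 4.97), overlapped with their neighbours and could not be ordered. Primers that favour the 3′ end make length a coarse correction, and in CPM without it Hsp90aa1 (599) preceded Hspe1 (265).

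Picrotoxin libraries held more molecules of the inducible Hsp70 pair than DMSO libraries, chiefly in 4 of 6 libraries. Values are numbers of molecules divided by the size factor of the library. Hspa1a, an Hsp70 that is strongly induced by heat and other proteotoxic stress, ran from 5.73 over a median of 11.4 to 26.0 in DMSO libraries and from 16.1 over 35.9 to 43.5 in picrotoxin libraries. All 6 picrotoxin libraries were above the DMSO mean and 4 were above the highest DMSO library. The log2 fold change was 1.25 (SE 0.27), from 13.0 ± 7.58 to 31.5 ± 11.1 (SD, n = 6 each).

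Hspa1b, its near-identical neighbour, ran from 7.17 over a median of 9.95 to 18.6 in DMSO libraries and from 10.1 over 34.3 to 77.5 in picrotoxin libraries. In all, 4 picrotoxin libraries exceeded every DMSO library, and the other 2 lay inside the DMSO range. The log2 fold change was 1.74 (SE 0.35), from 10.8 ± 4.35 to 36.8 ± 26.0 (SD, n = 6 each). The spread of Hspa1b between libraries, a biological coefficient of variation of 0.345, was above that of 92.8% of tested genes, for which the median was 0.147.

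Summed over both genes, the pair measured 20.8, 18.9, 16.4, 44.5, 13.9 and 28.6 in DMSO 1 to 6 and 29.5, 121, 66.2, 74.2, 92.0 and 26.8 in picrotoxin 1 to 6. Picrotoxin 2, 3, 4 and 5 lay above every DMSO library, whereas picrotoxin 1 and 6 lay between DMSO 5 and DMSO 4. The sum does not depend on how reads were divided between the copies, although it would still hold any read counted for both. Its log2 fold change was 1.51 (SE 0.27), a ratio of means of 2.86, and rested on 159 molecules in DMSO and 388 in picrotoxin libraries. It was between 1.25 and 1.76 under every alternative tried, including each library left out in turn and DMSO 3 and 5, the libraries highest in matrix transcripts, left out together (1.25).

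**Figure D1:**
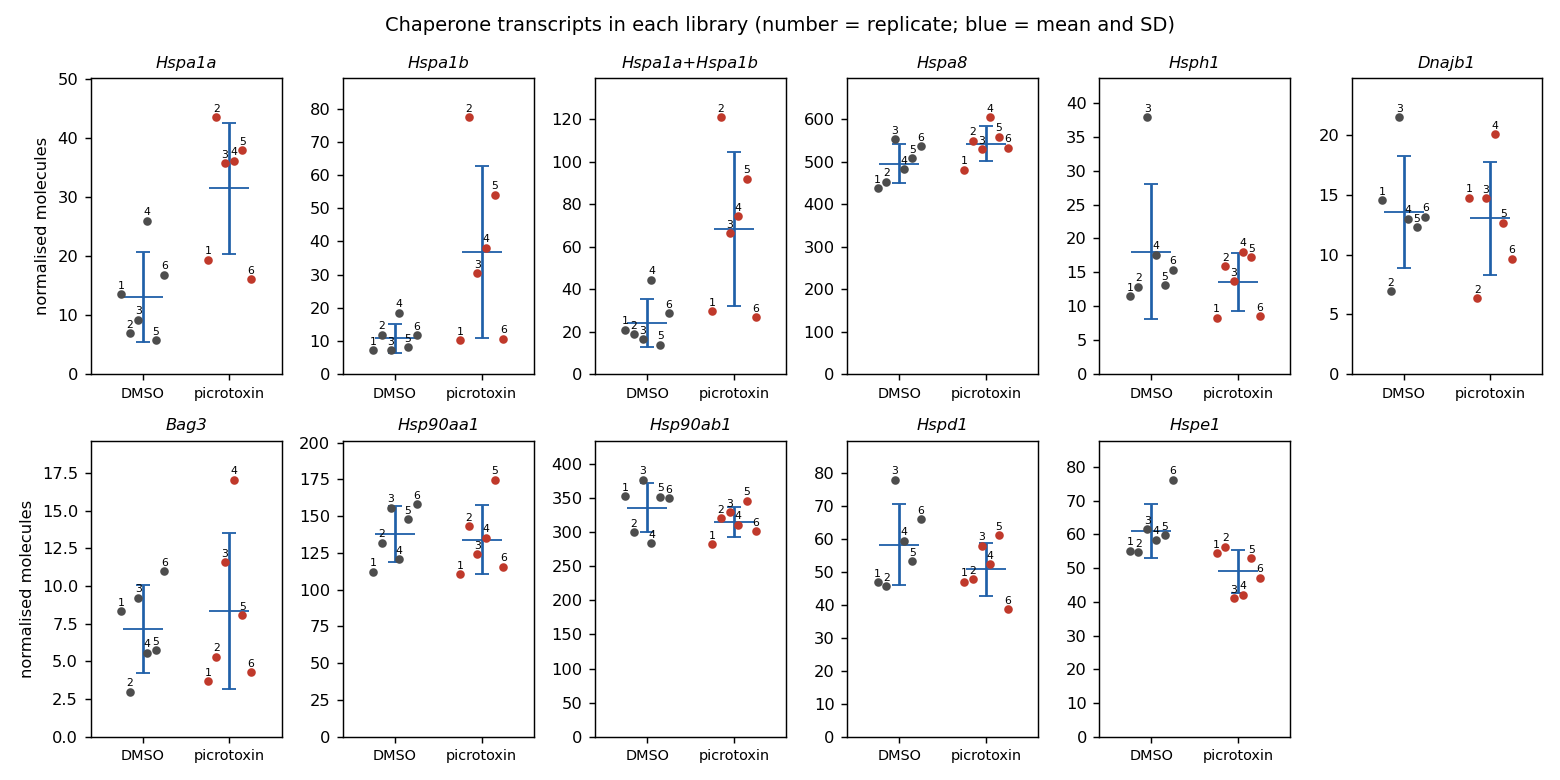
Normalised molecules (vertical axes, linear, from 0) of the 10 chaperone genes and of the summed pair in each of the 6 DMSO (grey) and 6 picrotoxin (red) libraries. Numbers are replicates and blue lines are the mean and SD. Picrotoxin 2 to 5 stand above all DMSO libraries for the summed pair, whereas groups overlap for every gene.

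Both genes contributed to the pair in every library. Hspa1b made up 7 of 20 to 12 of 19 pair molecules in DMSO libraries (mean share 47.2% ± 11.1, SD, n = 6) and 34.4% to 64.0% in picrotoxin libraries (49.1% ± 11.2, SD, n = 6). The highest share was in picrotoxin 2, at 73 of 114 molecules (95% Wilson interval 54.9% to 72.3%), and the lowest in picrotoxin 1, at 11 of 32 (20.4% to 51.7%). The ranges of these shares nearly coincided between the groups. Pooled over molecules, which weights libraries rich in the pair, Hspa1b made up 45.3% in DMSO and 53.6% in picrotoxin libraries. Within picrotoxin, libraries 1 and 6, lowest in the pair, had 34.4% and 40.0%, and the others had 46.0% to 64.0%. Within DMSO, libraries 4 and 6, highest in the pair, had 41.7% and 41.0%. Of all molecules of the pair and Hspa8 together, the pair took 2.66% to 8.45% in DMSO libraries (4.60% ± 2.10, SD, n = 6) and 4.79% to 18.1% in picrotoxin libraries (10.8% ± 5.01, SD, n = 6), so that Hspa8 remained the main cytosolic Hsp70 transcript throughout.

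The other 8 members had small differences of either sign, with log2 fold changes between -0.38 and 0.21 and a median of -0.06, beside -0.006 over all tested genes. Hspa8, which folds new and transported proteins in unstressed cells, ran from 438 over 495 to 552 in DMSO and from 481 over 541 to 605 in picrotoxin libraries (log2 fold change 0.14, SE 0.08). The ranges overlapped between 481 and 552. Stretches of Hspa8 recur in 6 other gene models, 5 of them pseudogenes, and of Hsp90aa1 in 3 pseudogenes. Those of Hspd1 recur in 1 pseudogene and those of Hspe1 in 1 other protein-coding gene model. Reads of these 4 genes may therefore be split.

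Among the partners of Hsp70, Dnajb1, the J-domain protein that pairs with inducible Hsp70, ran from 6.95 over 13.1 to 21.5 in DMSO and from 6.37 over 13.7 to 20.1 in picrotoxin libraries (log2 fold change -0.03, SE 0.25). Hsph1, an Hsp110 that exchanges nucleotide on Hsp70, ran from 11.4 over 14.2 to 37.9 in DMSO and from 8.29 over 14.8 to 18.1 in picrotoxin libraries (log2 fold change -0.38, SE 0.27). Its highest value was DMSO 3 alone, and without that library the fold change was -0.06. Bag3, a nucleotide exchange factor that links Hsp70 to selective autophagy, ran from 2.98 over 7.03 to 10.99 in DMSO and from 3.69 over 6.68 to 17.1 in picrotoxin libraries (log2 fold change 0.21, SE 0.35). For all 3 partners the groups overlapped, and without single libraries the estimate of Bag3 lay between -0.14 (without picrotoxin 4) and 0.40 and that of Dnajb1 between -0.19 and 0.13 (without DMSO 3).

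The Hsp90 genes differed between the groups by less than 1 SE. Hsp90aa1 ran from 112 over 140 to 158 in DMSO and from 111 over 130 to 175 in picrotoxin libraries (log2 fold change -0.04, SE 0.12). Hsp90ab1 ran from 284 over 351 to 377 in DMSO and from 282 over 316 to 346 in picrotoxin libraries (log2 fold change -0.08, SE 0.09). Both ranges overlapped, and the highest library was picrotoxin 5 for Hsp90aa1 but DMSO 3 for Hsp90ab1.

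The mitochondrial chaperonin genes had negative log2 fold changes. Hspe1, the lid of the Hsp60 chamber, ran from 54.6 over 59.1 to 76.2 in DMSO and from 41.0 over 50.02 to 56.3 in picrotoxin libraries (log2 fold change -0.31, SE 0.13). All 6 picrotoxin libraries were below the DMSO mean and 5 were below the lowest DMSO library. The share of all tested genes with such counts is not given, so nothing is read from them. Hspd1, the chamber itself, ran from 45.7 over 56.3 to 77.8 in DMSO and from 38.6 over 49.98 to 61.0 in picrotoxin libraries (log2 fold change -0.19, SE 0.14). Its groups overlapped, with 1 picrotoxin library, picrotoxin 6, below the lowest DMSO library. The 5′ ends of the gene models of Hspd1 and Hspe1 overlap on opposite strands, and strand use in counting is not given in the sources used here.

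**Figure D2:**
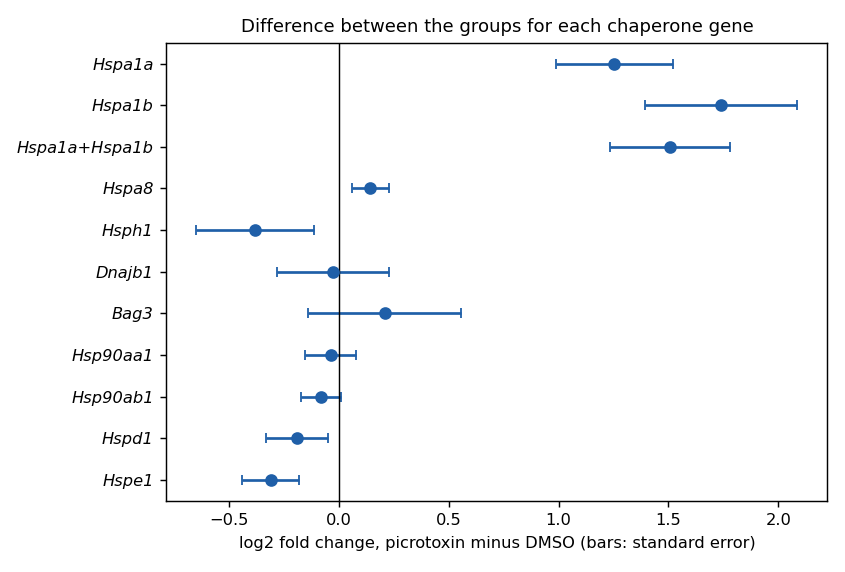
Log2 fold change (horizontal axis, picrotoxin minus DMSO) of each chaperone gene and of the summed pair, with bars for 1 standard error. Hspa1a (1.25), Hspa1b (1.74) and their sum (1.51) lie to the right of the other 8 genes, which span -0.38 to 0.21.

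Over all 9580 genes tested, edgeR called 5 at an adjusted p under 0.05, a share of 0.0522% (3 higher in picrotoxin, 0.0313%, and 2 lower, 0.0209%), and 744 at an unadjusted p under 0.05, a share of 7.77%. Hspa1b was the only member among the 5, and Hspa1a, Hspa1b and Hspe1 were among the 744. Nothing is read from these counts because the same contrast chose the members. The call of Hspa1b was absent when DMSO 3, 5 or 6 or picrotoxin 2, 3, 4 or 5 was left out, and Hspa1a joined it without DMSO 1, DMSO 4 or picrotoxin 6. All 10 members had overlapping groups, whereas 0.386% of tested genes had groups that did not overlap. A total of 39 tested genes had a higher log2 fold change than Hspa1a.

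Whether the chaperones vary together from library to library was asked after removing the group means, which is a measure that the choice of members did not use. Hspa1a and Hspa1b varied together (Pearson r = 0.74, n = 12, exact permutation within groups, two-sided, p = 0.00311, adjusted p = 0.0436 over 14 relations). Spearman rho was 0.66 (exact permutation p = 0.0371, adjusted p = 0.52). The correlation was 0.63 in the 6 DMSO libraries (exact permutation p = 0.193) and 0.96 in the 6 picrotoxin libraries (exact permutation p = 0.00417). Without DMSO 5 and picrotoxin 6, the libraries farthest from the median, r was 0.69 (exact permutation p = 0.0147). Reads from the shared coding sequence, if counted for both copies, would enter both values, and their number was not measured. With any 1 library left out r stayed between 0.66 and 0.81, but the adjusted p passed 0.05 only without DMSO 1, 2 or 3.

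**Figure D3:**
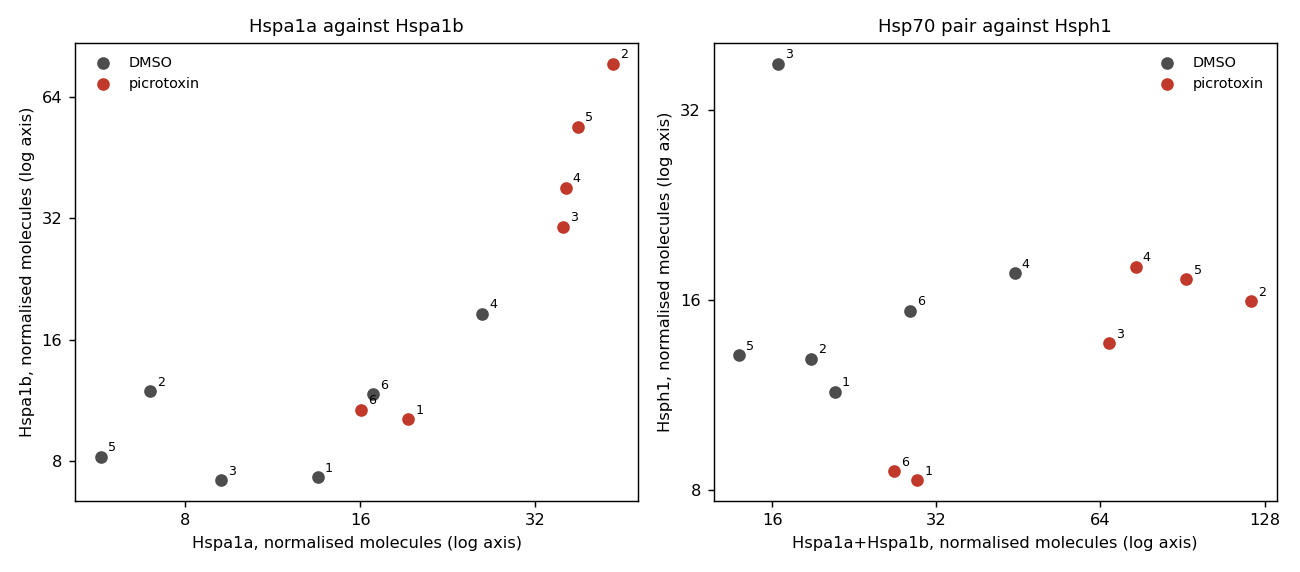
Normalised molecules per library on log axes, for Hspa1b against Hspa1a (left) and for Hsph1 against the summed pair (right), with DMSO libraries in grey, picrotoxin libraries in red and replicate numbers beside the points. Hspa1a and Hspa1b lie along 1 rising band (r = 0.74 within groups), and DMSO 3 stands alone in Hsph1 at 37.9.

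None of the other members followed the pair past the threshold in the 12 libraries. Hsph1 was the closest (r = 0.44, exact permutation p = 0.159, adjusted p = 0.619, rho = 0.46, exact permutation p = 0.17), with 0.93 in picrotoxin (exact permutation p = 0.025) and -0.07 in DMSO libraries. Without DMSO 3 it reached 0.90 (adjusted p = 0.0277, exact permutation), whereas without picrotoxin 1 and 6, the libraries farthest from the median of the pair, it was -0.03. Within picrotoxin libraries Hsp90aa1 and Hsp90ab1 had correlations of 0.80 and 0.78 with the pair (exact permutation p = 0.0569 and 0.0736). Within DMSO libraries the values were -0.37 and -0.64 (exact permutation p = 0.469 and 0.157). Without picrotoxin 1 and 6, the correlations over the remaining libraries were -0.09 and -0.50. The difference between groups was not tested. Dnajb1 was the lowest, at -0.15. Correlations of the pair with the library total (-0.11), the Rn45s share (0.16), the matrix marker share (-0.27), the macrophage marker share (0.24) and the share of immediate-early genes (0.34) were also not past the threshold, with no adjusted p under 0.619 (exact permutation).

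**Figure D4:**
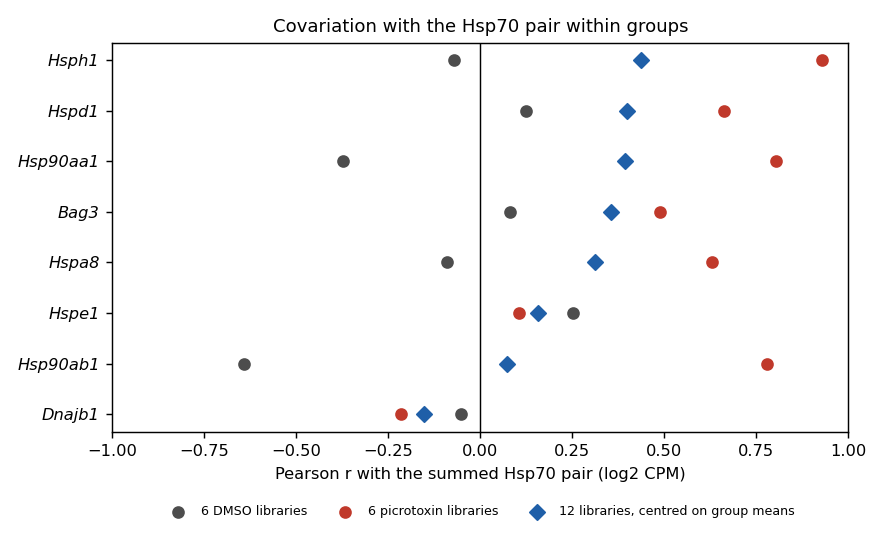
Pearson correlation (horizontal axis) of each chaperone gene with the summed pair in log2 CPM, within the 6 DMSO libraries (grey), within the 6 picrotoxin libraries (red) and over all 12 after removing group means (blue diamonds). Hsph1 has the highest value over 12 libraries, 0.44, and Dnajb1 the lowest, -0.15.

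By the same measure, the genes outside the list whose pattern was most like the pair were Rasa1 (r = 0.86), Ppp4r3b (0.85), Elof1 (0.84), Dpp9 (0.82), Pcmt1 (0.80), Sec24c (0.80), Ccng1 (0.79), Cpsf2 (0.77), Rgs10 (0.76) and Ccnd3 (0.76), among 3732 genes compared over 12 libraries. They are the top of a ranking in which 90% of genes lay between -0.48 and 0.50, and no p is given. Hsph1, Hspd1 and Hsp90aa1 stood at percentiles 92.0, 89.4 and 89.1 of that ranking, Bag3 and Hspa8 at 86.3 and 83.1, and Hspe1, Hsp90ab1 and Dnajb1 at 67.8, 56.7 and 29.8. All points share library, depth and normalisation.

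Other genes of the folding and stress systems were taken from 11 lists with 143 genes, of which 130 were tested. None passed an adjusted p under 0.05 in edgeR, while 6 had an unadjusted p under 0.05 and higher values in picrotoxin and 2 had lower ones, beside shares of 3.65% and 4.11% over all tested genes. The median log2 fold change over the 130 genes was -0.03. Where libraries above the DMSO mean are counted below, 15.8% of all tested genes were above it in at least 5 of 6 picrotoxin libraries. No like share is given for genes above it in every picrotoxin library, here or for Hspa1a.

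Within the Hsp70 system, the 5 tested family relatives had a median log2 fold change of -0.51, but most had few molecules. Of these, 1 had an unadjusted p under 0.05, namely Hspa4l. Its means were 3.11 with DMSO and 1.22 with picrotoxin (log2 fold change -1.29, edgeR adjusted p = 0.571). Hspa4, an Hsp110 relative, measured 46.1 ± 8.20 in DMSO and 44.3 ± 5.98 in picrotoxin libraries (log2 fold change -0.05, edgeR adjusted p = 0.976). Hspa1l, the third Hsp70 gene of the same cluster, had at most 1 molecule in any library. Of 15 J-domain genes 1 had an unadjusted p under 0.05, namely Dnajc13, which acts on endosomes, at 23.5 ± 4.05 with DMSO and 30.8 ± 1.29 with picrotoxin (SD, n = 6 each, log2 fold change 0.42, edgeR adjusted p = 0.479, higher than the DMSO mean in 6 of 6). The 8 nucleotide exchange factors and co-chaperones had a median of -0.01, and none had an unadjusted p under 0.05.

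The 14 genes of the cytosolic chaperonin CCT, which folds actin and tubulin, and of prefoldin included 12 with negative log2 fold changes and a median of -0.14. Tcp1, a CCT subunit, measured 51.4 ± 4.73 with DMSO and 41.2 ± 8.45 with picrotoxin (SD, n = 6 each, log2 fold change -0.30, edgeR adjusted p = 0.622). The 11 mitochondrial chaperones and proteases outside the members had the same median, -0.14, and none had an unadjusted p under 0.05. Among 16 Hsp90 co-chaperones, 7 had positive and 9 negative log2 fold changes, and 1, Tsc1, had an unadjusted p under 0.05. Tsc1 had few molecules, with a mean of 2.70 with DMSO and 6.39 with picrotoxin (log2 fold change 1.21, edgeR adjusted p = 0.398). Ppid and Ptges3, known as p23, had log2 fold changes of -0.42 and -0.13 (edgeR adjusted p = 0.756 and 0.826). The list of 20 endoplasmic reticulum genes holds chaperones and also others, such as the transcription factor Xbp1, and 10 of them were positive. Hyou1 measured 26.3 ± 6.58 with DMSO and 34.6 ± 5.44 with picrotoxin (SD, n = 6 each, log2 fold change 0.42, edgeR adjusted p = 0.526).

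Heat shock factors were near the limit of this depth, and Hsf1 and Hsf2, like Hspa1l above, are named for their roles with their values known. Hsf1, the main activator of the heat shock response, had 32 molecules over the DMSO and 15 over the picrotoxin libraries, and Hsf2 had 19 and 20. These sums are not scaled for depth. Scaled means with DMSO and picrotoxin were 4.91 and 2.58 for Hsf1 (log2 fold change -0.86, edgeR adjusted p = 0.648) and 2.73 and 3.42 for Hsf2. In the list of heat shock factors and regulators, 3 of 6 genes were tested, with a median of -0.13. The 3 tested small heat shock proteins had a median of -0.33. Hspb1, which holds unfolded proteins in a refoldable state, was named after its values were seen. It had 15 molecules in picrotoxin 2, the library with the highest pair, and at most 2 in any other.

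The immediate-early genes, which respond within minutes to many stimuli, had a median log2 fold change of 0.12 over 24 tested genes. Their values were of both signs, 15 positive and 9 negative, and lay between -1.27 and 0.58. Fosb, an AP-1 subunit, measured 49.4 ± 9.71 with DMSO and 74.1 ± 15.1 with picrotoxin (SD, n = 6 each, log2 fold change 0.58, SE 0.14, edgeR adjusted p = 0.13), and exceeded the DMSO mean in 6 of 6 picrotoxin libraries. Atf3, a stress-induced transcription factor, was also above it in 6 of 6 (log2 fold change 0.28, edgeR adjusted p = 0.621). These genes together made up 0.656% ± 0.0444 of molecules with DMSO and 0.694% ± 0.0681 with picrotoxin (SD, n = 6 each, exact permutation p = 0.268). Its part in the values of the pair was not tested beyond the correlation given above. The 11 tested oxidant and metal stress genes had a median of -0.09, with Hmox1, the inducible haem oxygenase, at a log2 fold change of -0.22 (edgeR adjusted p = 0.927). Hmox1 measured 18.4 ± 13.6 with DMSO and 15.7 ± 7.73 with picrotoxin (SD, n = 6 each). Its DMSO mean leans on DMSO 5, at 45.0 against 9.28 to 19.5 in the other DMSO libraries.

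**Figure D5:**
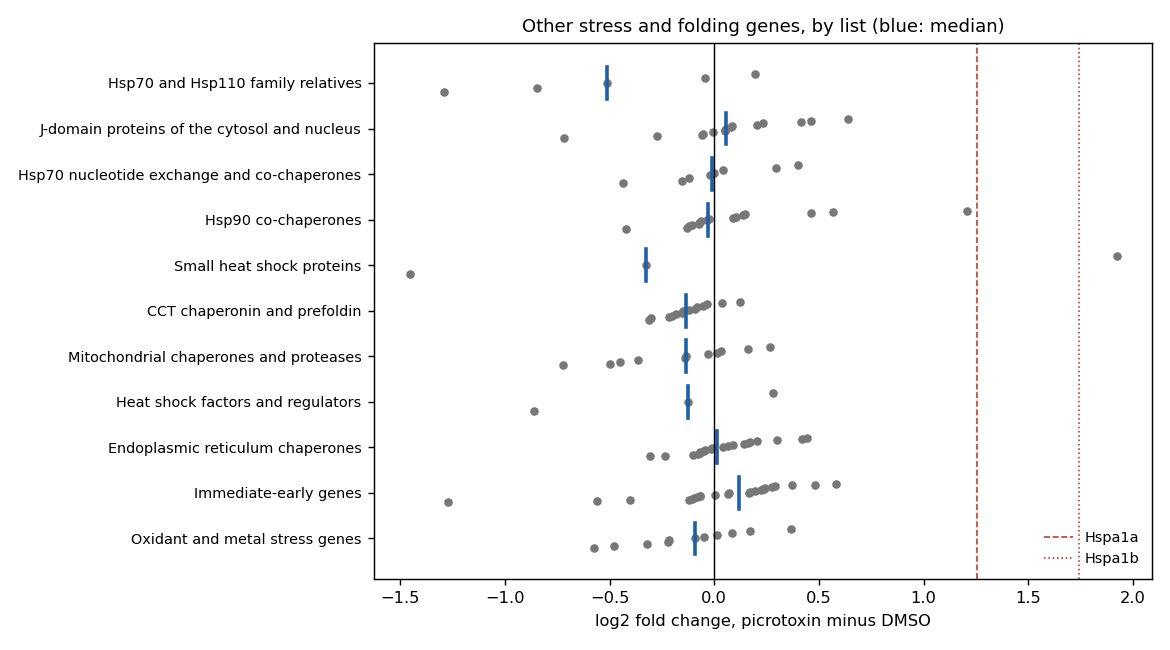
Log2 fold change (horizontal axis, picrotoxin minus DMSO) of the 130 tested genes of the 11 lists, 1 grey point per gene, with the median of each list in blue and the values of Hspa1a (1.25) and Hspa1b (1.74) as red lines. List medians lie between -0.51 and 0.12.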

How the data were processed

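Libraries were made by the authors from 100 sorted cells each, by priming on poly(A) with molecular barcodes, template switching and PCR. Reads were mapped by the authors with STAR to mm10, with refFlat annotation, and the deposited values are counts, that is whole numbers of barcoded molecules for each gene symbol. Handling of multi-mapping reads, strand and barcode errors is not given in the sources used here. All 12 columns were used and 0 were left out.

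The members and lists were chosen with earlier results of these data known. Genes with a mean normalised count above 1 were tested by the quasi-likelihood test of edgeR 4.0.16 (R 4.3.3, TMM) and adjusted by Benjamini-Hochberg across the 9580 genes. Standard errors came from the fold change and the F statistic. Normalised molecules were counts divided by DESeq2 1.42.0 size factors, and log2 CPM used a prior count of 2. The pair was the sum of both genes, fitted as 1 row in the same table. Correlations used values centred on group means, with exact permutation of libraries within groups (518400 permutations). Single values were compared by exact two-sided permutation over 924 assignments, whose smallest p is 0.00216. Levels per kilobase used GENCODE release 21 transcripts on GRCm38. Wilson intervals at the 95% level and the floor of 3 molecules (0.00149% of the smallest library) cover counting error only.

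Named genes were the 10 members, from each list up to 3 tested genes of smallest p with a mean count of at least 10, and the 10 genes most like the pair. Hsf1, Hsf2, Hspa1l, Hspa4l, Hspb1 and Tsc1 fall outside this rule and were added after their values were seen. The text prints a selection of the list genes. In 30 pairs of libraries of the same group, chi-square per degree of freedom was 1.23 to 3.15, so none was counted as a copy. The fits of differences between groups were tested on simulated counts, whereas the correlations, permutation tests and sequence searches were not. Alternatives were other normalisations, filters, DESeq2, limma-voom (limma 3.58.1), a replicate block, replicates 3 to 6 alone, removal of Rn45s and each library left out. Leaving out DMSO 3 and 5 together, and giving levels per kilobase beside CPM, were added after seeing the data.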

Additional observations from a re-analysis of the deposited data

Results flagged for a closer look

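A sample far from the rest of its group was looked for in 44 sets of 6 libraries by Dixon's test at the 95% level, where chance gives about 2.2, and 5 were found. Hsph1 in DMSO 3 measured 37.9 normalised molecules, against 11.4 to 17.6 in the other DMSO libraries. Hspe1 in DMSO 6 measured 76.2, against 54.6 to 61.5. The share of fibroblast and matrix markers in DMSO 5 was 0.304%, against 0.00728% to 0.0874%. T and NK cell markers took 0.0105% of molecules in picrotoxin 6, against 0% to 0.00088%. MC38 epithelial markers took 0.00637% in DMSO 1, against 0.00325% to 0.00441% in the other DMSO libraries, while picrotoxin 3, 4, 5 and 6 had 0.00704%, 0.00667%, 0.0104% and 0.00867%. The pair itself had no library that stood apart by this test in either group.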

How the results depend on the processing

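The log2 fold change of the pair kept its direction under all 22 alternatives, between 1.25 and 1.76. Of the members, estimates of Bag3 (-0.14 without picrotoxin 4), Dnajb1 (up to 0.13) and Hsp90aa1 (up to 0.02) changed sign under at least 1 alternative, and those of the other 7 did not. Calls were less stable, and the cause was not tested. Against 5 genes and 1 member called, library totals gave 13 genes, DESeq2 gave 2 genes and 0 members, limma-voom 3 and 0, no filter 81 and 2, a mean above 10 left 0 members, replicates 3 to 6 alone gave 49 genes, omitting Rn45s 12 and 2, and omitting DMSO 3 and 5 gave 1 and 0. Without single libraries, 0 to 25 genes and 0 to 2 members were called. The fits without DMSO 5, DMSO 6, picrotoxin 2, 3 or 4 gave 0 genes by edgeR, with 607, 628, 694, 680 and 700 at an unadjusted p under 0.05.

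The replicate numbers were not taken as pairs. Of 6 same-number correlations, 1 was above 0.1 (range -0.00492 to 0.126), with a mean of 0.053 beside -0.011 for unlike numbers. Of 12 libraries, 4 correlated best with their own number. These values do not settle whether the numbers mark pairs. With the number as a replicate block, 43 genes and 2 members were called, and the pair was at 1.45. Of the list genes, 1 was called under the block (Fosb), 1 with no filter (Fosb) and 2 in replicates 3 to 6 alone (Dusp1 and Mt2).

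The correlation of Hspa1a with Hspa1b was 0.72 on log2 of normalised counts plus 1 and 0.84 in replicates 3 to 6 alone, both with adjusted p over 0.05 (0.0555 and 0.17, exact permutation), and 0.66 to 0.81 without single libraries. That of the pair with Hsph1 was 0.32 to 0.90 without single libraries. At 7 to 28 molecules per DMSO library, counting error limits the single genes of the pair.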

Other observations

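Among the members, the closest relation over the 12 libraries after removing group means was between Hsph1 and Hspd1 (Pearson r = 0.81), followed by Hspa8 with Hsph1 (0.74), Hspa1a with Hspa1b (0.74), Hspa8 with Hsp90aa1 (0.72) and Dnajb1 with Bag3 (0.69). These values describe 45 pairs of genes in the same libraries, which share depth and normalisation, and no p is given.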
